A study of Sus scrofa with 43 samples.

Results

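The mitochondrial respiratory chain was examined in the jejunal scrapings through the transcripts of its subunits. Members were the spots whose transcript accession, without its version, belongs to a porcine RefSeq gene with a symbol beginning with NDUF, SDHA to SDHD, UQCR, CYC1, COX4 to COX8 followed by letters, or ATP5. This rule found 27 genes among the 35884 accessions of the array, read by 99 spots with 99 different probes, and 25 of the 27 passed the filter on dim genes. Of the 81 RefSeq symbols that follow the rule, 54 have no spot under their accession. The 43 arrays each held 1 male piglet, and no piglet was measured at more than 1 age. In control day 1, arrays are titled piglet 19 and piglet 19B. The labels do not say whether these are separate piglets, and they were counted as such. The paper took 1 piglet from each sow at each age, so ages may share litters, which the labels do not name. The control arm held 23 piglets of Hypor gilts and sows on standard feed. The amoxicillin arm held 20 piglets whose dams received amoxicillin, a beta-lactam antibiotic, in the feed at 15 mg/kg body weight daily over the last week before farrowing, and standard lactation feed after it. Each amoxicillin group had 4 arrays, and the control groups had 6 (day 1), 6 (day 7), 3 (weaning), 5 (4 d postweaning) and 3 (4 wk postweaning). Only the dams were dosed, so the piglets are a model of maternal exposure.

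The respiratory chain lies in the inner mitochondrial membrane. Complex I (NADH dehydrogenase) and complex II (succinate dehydrogenase) pass electrons to ubiquinone, complex III hands them to cytochrome c, and complex IV (cytochrome c oxidase) passes them to oxygen. Complexes I, III and IV pump protons, and complex V, the ATP synthase, uses the returning protons to make ATP. In the jejunum, absorptive enterocytes hold many mitochondria and spend ATP on nutrient uptake. A scraping holds several cell types, so fewer cells of a type and less RNA per cell cannot be told apart in these values.

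Levels are log2 intensity after background correction and quantile normalization, averaged over the probes of a gene, and changes are differences of log2 levels from limma. A gene was called where the adjusted p over all 12771 genes tested was under 0.05. Gene spots well above background numbered 15937 to 29827 per array. The arrays lay on 6 slides, of which 3 held only control and 3 only amoxicillin piglets, and the effects of slide and treatment therefore cannot be told apart. At weaning, control piglet 7 and amoxicillin piglet 8 stood apart. Their summed level of 3 B and plasma cell markers was 14.90 and 15.37, against 8.36 to 11.10 in the other 5 weaning piglets, and their summed level of 3 markers of dividing crypt cells was 14.58 and 15.06, against 9.99 to 12.28. The summed level of 7 enterocyte markers was 17.24 in amoxicillin piglet 8 and 18.26 to 18.64 in the other weaning piglets. The changes called between neighbouring ages or between arms, the counts by complex and the probe counts that rest on weaning are therefore also given without both piglets. The genes called by an F-test over the 5 ages are named with both piglets kept.

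The subunits varied less than the median gene. Their standard deviation within groups had a median of 0.31 over the 25 tested members, from 0.08 for ATP5G1 to 0.54 for COX7A1, against 0.53 over all genes. The range of the 10 group means had a median of 0.64, against 1.31 over all genes. By mean level, every tested member but ATP5L (percentile 50.3) lay at percentile 89.0 or higher. The genes set beside them were not matched for level or number of probes, so the lower spread cannot be credited to the subunits themselves. Brightness limited some members, since a saturated spot gives only a lower bound. Of the 99 probes, 35 were saturated on at least 1 array, and they belonged to 15 members. Every probe of ATP5G1 was saturated on 38 arrays, every probe of ATP5G3 on 35 and every probe of ATP5I on 31, so no change is given for these genes, although counts over complex V include them. ATP5G1 and ATP5G3 encode the same mature ring subunit of the ATP synthase, and ATP5I encodes its subunit e. COX5B, which binds zinc in complex IV, was saturated in all its probes on 9 arrays, among them all 5 control arrays at 4 d postweaning. Saturation did not touch complexes I and II, whose 14 and 12 probes were never saturated, and it touched 1 of the 8 probes of complex III, 18 of 32 of complex IV and 16 of 33 of complex V.

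Over the 5 ages, taken as the mean of both arms, limma's F-test called 7 of the 25 subunits, where 55.6% of all genes tested were called. They were NDUFA4 (adjusted p = 0.00195), COX7A1 (0.00498), ATP5E (0.0199), NDUFV2 (0.0226), COX6B (0.0271), NDUFAF3 (0.0276) and NDUFC1 (0.0285). Within the control arm no subunit was called (30.5% of all genes), and the smallest adjusted p was 0.0745, for ATP5E. In this arm 2 subunits had an unadjusted p under 0.05 (40.6% of all genes). Within the amoxicillin arm 4 were called (47% of all genes): NDUFA4 (adjusted p = 0.00283), UQCRB (0.0181), NDUFV2 (0.0276) and COX7A1 (0.0311). Each of these shares lies below that of all genes in the same test. A call in the amoxicillin arm without one in the control arm does not show that the arms differ. The test of that difference, a treatment effect that changes with age, called no subunit (6.18% of all genes). Its smallest adjusted p was 0.238, for NDUFA4, which was also the single member with an unadjusted p under 0.05 (19.5% of all genes).

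The plot of each complex against its own mean gives the course of the complexes. Complex I, the entry point for electrons from NADH, was highest at 4 d postweaning in both arms. In the control piglets of that age all 5 members lay above their own mean over the 43 arrays, with a median deviation of 0.29 on the log2 scale, and in the amoxicillin piglets all 5 did so with a median of 0.17. At weaning the median deviation of complex I was -0.11 in the control and -0.32 in the amoxicillin arm. For complex II, which links the chain to the tricarboxylic acid cycle, the lowest group was control weaning, at -0.44, and the amoxicillin weaning group lay at 0.15. Complex III was lowest in the amoxicillin weaning group, at -0.63. The 4 arrays of that group ranged from -0.97 to -0.41 and the 3 control weaning arrays from -0.07 to 0.12. For complex IV the amoxicillin weaning arrays ranged from -0.32 to -0.03 and the control weaning arrays from 0.04 to 0.11. Complex V stayed between -0.09 and 0.05 in all 10 groups, with 16 of its 33 probes limited by saturation.

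**Figure D1:**
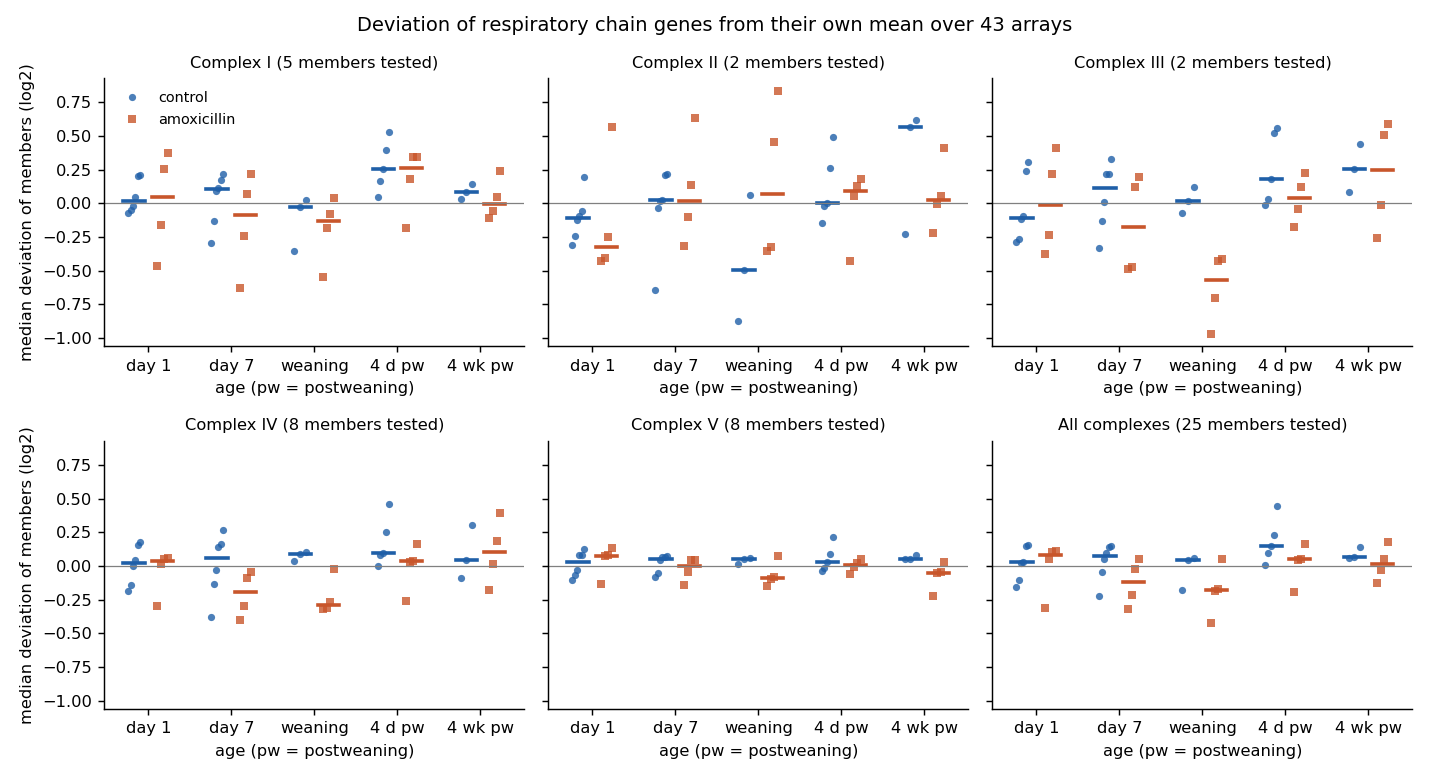
Median deviation of the tested subunits of each complex from their own mean over the 43 arrays (log2 scale, vertical axis) against the 5 ages (horizontal axis), with 1 point per array, control and amoxicillin arms side by side and bars at the group medians. Complex III lies lowest in the amoxicillin arm at weaning, and complex I is highest at 4 d postweaning in both arms.

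Between day 1 and day 7 no subunit was called (3.13% of all genes). An unadjusted p under 0.05 was seen for 1 (13.6% of all genes). The median change of the 25 was -0.08 and that of all genes 0.03. All 8 members of complex IV had a lower mean at day 7, with a median of -0.17, and so had 4 of 5 members of complex I, with a median of -0.09. In amoxicillin piglets all 8 and all 5 were lower (medians -0.18 and -0.23), and in control piglets 6 of 8 were lower in complex IV (median -0.04) and 3 of 5 higher in complex I (median 0.05). No test of that difference over the complexes was run. The smallest adjusted p, 0.230, was that of NDUFAF3, an assembly factor of complex I. Its mean was 13.47 ± 0.18 (SD, n = 6) in control piglets at day 1 and 12.95 ± 0.28 (SD, n = 6) at day 7, and 13.21 ± 0.10 (SD, n = 4) and 12.96 ± 0.28 (SD, n = 4) in amoxicillin piglets. Between the 2 control ages on slide 1, 14 of 25 members were lower with a median of 0.00, and on slide 4, with amoxicillin piglets, 17 were lower with a median of -0.09. Over the same step all 5 tested T cell markers rose, from 0.72 for CD8A to 2.32 for CD3E, and their part in the subunits' values was not tested.

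Between day 7 and weaning 1 subunit was called (11.5% of all genes), and it was higher at weaning (5.69% of all genes). This was COX7A1 (NM_214411), the isoform of a small complex IV subunit that is typical of heart and skeletal muscle. In control piglets its level ran from 11.33 to 12.95 at day 7 with a median of 11.94, and was 12.38, 12.61 and 13.04 at weaning. In amoxicillin piglets it was 11.87, 12.05, 12.23 and 12.51 at day 7 and 13.01, 13.03, 13.23 and 13.31 at weaning. The 2 ages overlapped in the control arm and did not overlap in the amoxicillin arm. The change over both arms was 0.80 (SE 0.26, adjusted p = 0.0355 from limma). It was 0.62 in the control arm (adjusted p = 0.605) and 0.98 in the amoxicillin arm (adjusted p = 0.0700).

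COX7A1 was read by 1 probe, which was never saturated. The call was lost without any of 8 arrays, namely control piglets 21 and 23 at day 7 and 7 and 24 at weaning, and amoxicillin piglets 20 and 21 at day 7 and 8 and 29 at weaning, with adjusted p from 0.0502 to 0.120. Without both weaning piglets that stood apart the change was 0.73 and the adjusted p 0.116. The processed signal (0.75, adjusted p = 0.0670), no filter on dim genes (adjusted p = 0.0781) and the piglet number as a replicate block (0.63, adjusted p = 0.945) ended it too. Many piglet numbers occur on a single array, so here and below the replicate block leaves few residual degrees of freedom. A call lost with that block therefore decides nothing. Within slides the step was of the same size, 0.91 on slide 2 with 3 against 4 control arrays and 0.92 on slide 5 with 4 against 1 amoxicillin arrays. COX7A2, the isoform found in most tissues, changed by 0.03 (adjusted p = 0.914). Of the 8 striated muscle markers on the array only 2 were bright enough to be tested, and neither was called for this step. Their summed level was 9.48 to 10.3 on all arrays up to weaning, with TNNC1 and MYH2 not well above background in several groups. Of the other subunits in this step, COX6B, a complex IV subunit on the side of the intermembrane space, differed by 0.36 (adjusted p = 0.160) and NDUFA4 by -0.36 (adjusted p = 0.166), or by -0.51 (adjusted p = 0.0794) without both piglets. The median over all 25 was -0.08, and over all genes 0.01.

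**Figure D2:**
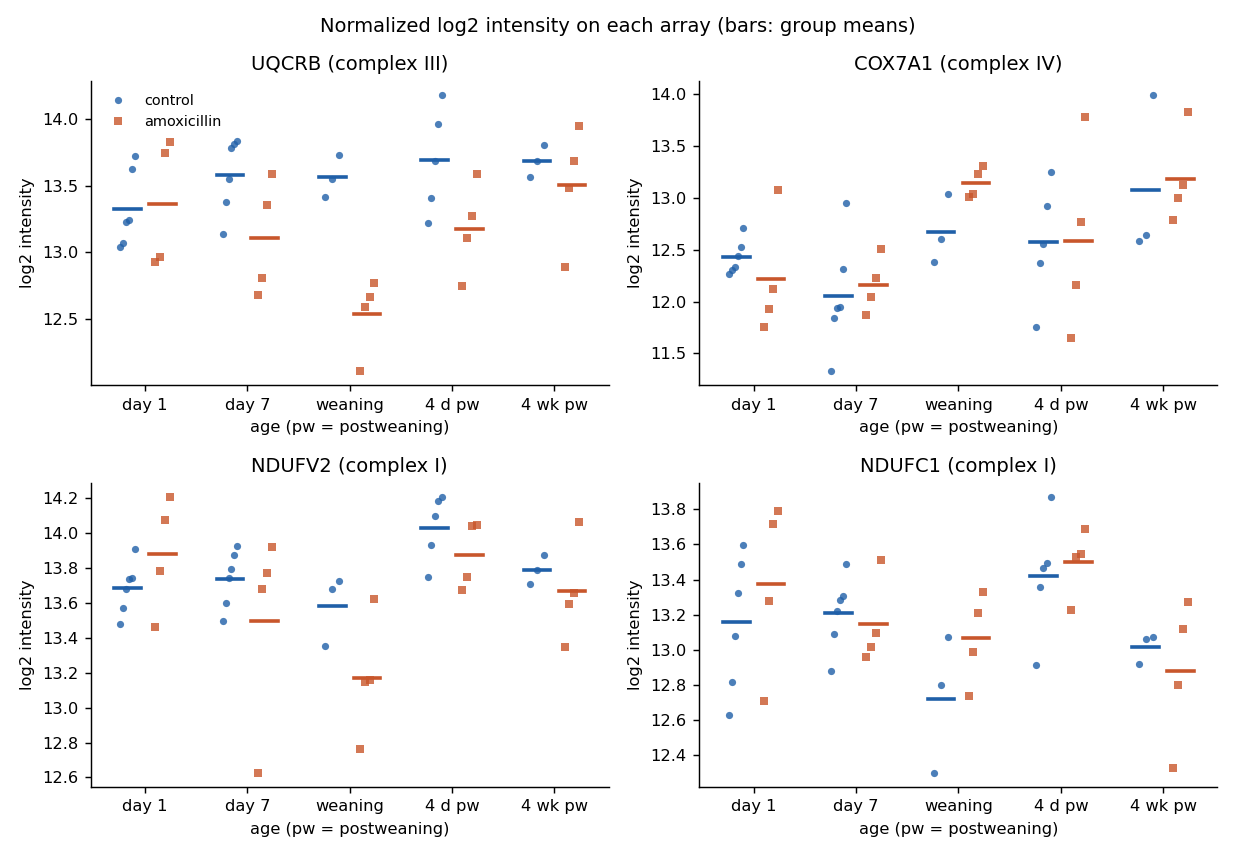
Normalized log2 intensity (vertical axis) of UQCRB, COX7A1, NDUFV2 and NDUFC1 on each of the 43 arrays at the 5 ages (horizontal axis), by arm, with bars at group means. UQCRB is lower on all 4 amoxicillin arrays than on the 3 control arrays at weaning, and NDUFV2 is higher on every array at 4 d postweaning than at weaning in each arm.

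Between weaning and 4 d postweaning the subunits had mostly higher means. Of the 25, 21 were higher at 4 d, with a median change of 0.24, while the median over all genes was -0.03. By arm, 19 were higher with a median of 0.16 in control piglets and 21 with a median of 0.14 in amoxicillin piglets. All 5 members of complex I were higher, by 0.25 to 0.58 with a median of 0.44, and the median was 0.42 in the control and 0.45 in the amoxicillin arm. Both members of complex III were higher (median 0.45), both of complex II (0.19), 7 of 8 of complex IV (0.17) and 5 of 8 of complex V (0.05). In complex II both members were higher in control piglets, by 0.50 and 0.60. In amoxicillin piglets SDHB differed by -0.40 and SDHD by 0.06, and the difference between the arms was not tested for this step alone. Among the 10 members whose probes were never saturated 9 were higher, with a median of 0.36, and the 15 with a saturated probe had a median of 0.16. Only 2 changes passed the test (13.7% of all genes), both upward (6.19% of all genes). An unadjusted p under 0.05 was seen for 7 members (29% of all genes).

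The called pair, NDUFV2 and NDUFC1, belongs to complex I. NDUFV2 (NM_001097475) is a core subunit that carries an iron-sulfur cluster of the NADH-oxidizing arm. In control piglets its level was 13.35, 13.68 and 13.72 at weaning and 13.75, 13.93, 14.10, 14.18 and 14.20 at 4 d postweaning. In amoxicillin piglets it was 12.76, 13.15, 13.16 and 13.62 at weaning and 13.68, 13.75, 14.04 and 14.04 at 4 d. The ages did not overlap in either arm. The change was 0.58 (SE 0.16, adjusted p = 0.0120), with 0.45 in control (adjusted p = 0.254) and 0.71 in amoxicillin piglets (adjusted p = 0.0425). All 5 probes of NDUFV2 were higher at 4 d. Its step within slides was 0.62 on slide 2, where 1 control array at 4 d met 3 at weaning, and 0.77 on slide 5, with 3 against 4 amoxicillin arrays. The call held without each single array, with changes of 0.51 to 0.65. It was lost with the arrays set to a common 75th percentile (0.48, adjusted p = 0.0991), with the scanner's processed signal (0.43, adjusted p = 0.128) and with the piglet number as a replicate block (0.23, adjusted p = 0.948). That block, as for COX7A1, leaves few residual degrees of freedom.

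NDUFC1 (NM_001097470) is an accessory subunit of the membrane arm. In control piglets its level was 12.30, 12.80 and 13.07 at weaning and 12.91, 13.36, 13.47, 13.49 and 13.87 at 4 d postweaning. In amoxicillin piglets it was 12.74, 12.99, 13.21 and 13.33 at weaning and 13.23, 13.53, 13.54 and 13.69 at 4 d. In each arm 1 later array lay within the earlier values, and the other later arrays lay above all earlier ones. The change was 0.57 (SE 0.17, adjusted p = 0.0268), and both probes were higher at 4 d. Without control weaning piglet 25 it was 0.46 (adjusted p = 0.0983), and without amoxicillin weaning piglet 25 it was 0.51 (adjusted p = 0.0549). The call of NDUFC1 was also lost with the common percentile (0.46, adjusted p = 0.130), the processed signal (0.52, adjusted p = 0.0971), no filter on dim genes (adjusted p = 0.0657) and the replicate block (0.13, adjusted p = 0.985).

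The other members of complex I did not pass the test for this step. NDUFAF3 differed by 0.44 (adjusted p = 0.0862), NDUFB6 by 0.43 (adjusted p = 0.0838) and NDUFB8 by 0.25 (adjusted p = 0.316), the last 2 being accessory subunits of the membrane arm. In complex III, UQCR10, a small subunit next to cytochrome c1, differed by 0.51 (adjusted p = 0.0678; its probe was saturated on 2 arrays) and UQCRB by 0.39 (adjusted p = 0.157). In complex II, SDHD, which anchors the enzyme in the membrane, differed by 0.33 (adjusted p = 0.279), and SDHB, its iron-sulfur subunit, by 0.05 (adjusted p = 0.898). In complex V the values were 0.31 for ATP5A1, the alpha subunit of the catalytic head (adjusted p = 0.171), and 0.25 for ATP5O, of the peripheral stalk (adjusted p = 0.261). COX7A1 went the other way, by -0.33 (adjusted p = 0.418).

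Without the 2 weaning piglets that stood apart, and with 13072 genes then tested, 4 subunits were called, all higher at 4 d, where 19.5% of all genes were called. These were UQCR10 (0.74, adjusted p = 0.00606), NDUFAF3 (0.72, adjusted p = 0.00230), NDUFC1 (0.70, adjusted p = 0.00948) and NDUFV2 (0.69, adjusted p = 0.00413). The number of members with a higher mean was then 19 of 25 and the median 0.18. Complex I had a median of 0.69 with 5 of 5 higher, complex III 0.51 with 2 of 2, complex IV 0.15 with 7 of 8, complex II 0.09 with 1 of 2 and complex V 0.03 with 4 of 8. Within slides, with both piglets kept, 16 of 25 were higher on slide 2 (median 0.15), where 1 array at 4 d met 3 at weaning. On slide 5, with 3 arrays at 4 d against 4 at weaning, 20 of 25 were higher (median 0.23). With all piglets kept, CD2 of T cells (1.63), SPDEF of goblet cells (1.20) and CDK1 of dividing crypt cells (1.15) rose over this step. DES of muscle (-1.04) fell, while none of the 7 enterocyte markers was called and their median change was 0.03. The median summed level of the goblet cell markers went from 13.61 to 14.30 in control and from 14.54 to 14.22 in amoxicillin piglets. Without both piglets CD2, SPDEF, CDK1 and DES differed by 1.31, 1.02, 1.93 and -1.60. CNN1 of muscle was then called too (-1.47, adjusted p = 0.00926). The other tested T cell markers ran from -0.01 to 0.35, and none was called. The part of these cell types in the subunits' values was not tested.

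Between 4 d and 4 wk postweaning no subunit was called (5.43% of all genes), and 2 had an unadjusted p under 0.05 (23.2%). The median was -0.01 against -0.09 for all genes. NDUFC1 had the smallest adjusted p, 0.0725, with a difference of -0.51. Its mean was 13.42 ± 0.34 (SD, n = 5) at 4 d and 13.02 ± 0.09 (SD, n = 3) at 4 wk in control piglets, and 13.50 ± 0.19 (SD, n = 4) and 12.88 ± 0.42 (SD, n = 4) in amoxicillin piglets. ATP5E, the epsilon subunit of the central stalk of the ATP synthase, differed by -0.29 (adjusted p = 0.217) in this step. Its control means were 13.51, 13.43, 13.60, 13.16 and 12.96 from day 1 to 4 wk postweaning, and its amoxicillin means 13.56, 13.52, 13.40, 13.48 and 13.10. The last age had the lowest mean in both arms, and 1 of the 2 probes of ATP5E was saturated on 37 arrays. On slide 3, with 3 control arrays at 4 wk against 4 at 4 d, 20 of 25 members were lower at 4 wk (median -0.05). On slide 6, with 4 amoxicillin arrays at 4 wk against the single 4 d piglet 34, 18 were higher (median 0.13). Piglet 34 had the lowest median deviation over all members in its group, -0.20 against 0.05 to 0.17 in the others.

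NDUFA4 (NM_001097468), named as a complex I protein and now counted with complex IV, had the smallest p of the 25 over the ages. Its control means were 13.80 ± 0.39 (SD, n = 6) at day 1, 13.83 ± 0.29 (n = 6) at day 7, 13.62 ± 0.32 (n = 3) at weaning, 13.70 ± 0.26 (n = 5) at 4 d and 13.20 ± 0.18 (n = 3) at 4 wk postweaning. Its amoxicillin means, with 4 arrays each, were 13.99 ± 0.34, 13.38 ± 0.34, 12.88 ± 0.32, 13.14 ± 0.19 and 13.16 ± 0.37. The control means thus stayed between 13.62 and 13.83 up to 4 d postweaning, and the amoxicillin means lay below them from day 7 to 4 d. These means include a probe that differed between the arms by -1.23, -2.88 and -1.81 at day 7, weaning and 4 d. In amoxicillin weaning piglets that probe lay at 6.99, below the filter on dim genes. The highest of the 6 probes differed by -0.16, 0.29 and 0.13 at the same ages. The treatment differences were -0.44 at day 7 (adjusted p = 0.71), -0.74 at weaning (SE 0.25, adjusted p = 0.0663, or 0.116 without both piglets that stood apart) and -0.56 at 4 d (adjusted p = 0.200), none of which passed. NDUFA4L2, its paralogue, failed the filter with levels of 5.96 to 8.51 although it was well above background on 41 arrays. COX8H, the heart and muscle isoform of subunit VIII, was well above background on 3 arrays.

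Amoxicillin against control gave few calls at any age. No subunit was called at day 1 (0.258% of all genes), day 7 (0% of all genes), 4 d postweaning (3.37%) or 4 wk postweaning (4.11%). An unadjusted p under 0.05 was seen for 1, 3, 4 and 0 of the 25, and for 9.9%, 6.95%, 13.6% and 17.4% of all genes. At day 1 the smallest p values were those of ATP5L, subunit g of the membrane part of complex V (0.58, adjusted p = 0.49), and NDUFB8 (-0.28, adjusted p = 0.739). At day 7 they were those of ATP5J2, subunit f of the same part (-0.37, adjusted p = 0.71), and NDUFA4. Both probes of ATP5J2 were saturated on some arrays, 14 in all, where its level is only a lower bound. At 4 d postweaning COX6B came first, with 13.75 ± 0.38 (SD, n = 5) in control and 13.12 ± 0.45 (SD, n = 4) in amoxicillin piglets (-0.63, adjusted p = 0.127). At 4 wk they were ATP5A1 (-0.34, adjusted p = 0.482) and NDUFB6 (-0.31, adjusted p = 0.608). More members lay lower than higher in the amoxicillin arm at each age, 14, 18, 19, 18 and 19 of 25 in order of age. These are 56, 72, 76, 72 and 76% of the members, beside 64.0, 58.5, 54.6, 51.4 and 63.6% of all genes. Their medians were -0.04, -0.07, -0.20, -0.07 and -0.06, and those of all genes -0.12, -0.06, -0.07, -0.01 and -0.17.

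At weaning an unadjusted p under 0.05 was seen for 5 subunits (22.2% of all genes). Only 1 subunit was called (7.95% of all genes), and it was lower in the amoxicillin arm (5.18% of all genes). This was UQCRB (NM_001185172), the small ubiquinone-binding protein of complex III. Its level was 13.41, 13.55 and 13.73 in control piglets and 12.10, 12.59, 12.66 and 12.77 in amoxicillin piglets, with means of 13.57 ± 0.16 (SD, n = 3) and 12.53 ± 0.29 (SD, n = 4). The arms did not overlap, and the lowest value was that of amoxicillin piglet 8. The difference was -1.03 (SE 0.28, adjusted p = 0.0164). Without both weaning piglets that stood apart it was -0.97 (SE 0.33, adjusted p = 0.0649), and no subunit was then called, beside 7.04% of all genes. The call was also lost without control piglet 24 (-0.95, adjusted p = 0.0678) or 25 (-1.04, adjusted p = 0.0567). With the slide as a random effect UQCRB was at -0.98 (adjusted p = 0.117), with the piglet number as a replicate block at -0.80 (adjusted p = 0.175) and with the processed signal at -0.87 (adjusted p = 0.0833), and was not called.

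At the other ages the arms of UQCRB overlapped. At day 1 its level ran from 13.04 to 13.72 in control piglets (median 13.23) and was 12.92, 12.97, 13.75 and 13.83 in amoxicillin piglets. At day 7 it ran from 13.14 to 13.83 in control piglets (median 13.67) and was 12.68, 12.81, 13.36 and 13.59 in amoxicillin piglets. At 4 d postweaning it was 13.22, 13.41, 13.68, 13.96 and 14.18 against 12.74, 13.10, 13.27 and 13.59, and at 4 wk 13.56, 13.69 and 13.80 against 12.89, 13.48, 13.69 and 13.95. The differences at these 4 ages were 0.04, -0.48, -0.51 and -0.18, and none passed.

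By complex, the weaning differences did not all point down. Both members of complex III were lower in the amoxicillin arm (median -0.65), as were 7 of 8 of complex IV (-0.39), 4 of 5 of complex I (-0.29) and 6 of 8 of complex V (-0.02), whereas both members of complex II were higher (0.59). Without both piglets that stood apart the medians were -0.67, -0.34, -0.31, -0.01 and 0.73 in the same order, and complex I had 3 of 5 lower, since NDUFB6 moved from -0.29 to 0.03. Among the 10 members with no saturated probe, 5 were lower and 5 higher, with a median of -0.09. Arms that did not overlap at weaning were seen for 4 members, where 12.7% of all genes showed it. They were UQCRB, COX6A1, ATP5G3 and ATP5I, and every probe of the last 2 was saturated on all 3 control weaning arrays. COX6A1, the common isoform of complex IV subunit VIa, was 15.76, 15.82 and 15.87 in control and 15.09, 15.47, 15.50 and 15.57 in amoxicillin piglets (-0.41, adjusted p = 0.0611, and -0.47, adjusted p = 0.0729, without both piglets), and all 5 of its probes were saturated on at least 1 array. SDHD was 11.57, 11.96 and 12.39 against 12.14, 12.32, 13.06 and 13.26, which overlapped (0.72, adjusted p = 0.146). SDHB overlapped too, with 11.86, 12.22 and 12.91 against 12.21, 12.33, 13.03 and 13.59 (0.46, adjusted p = 0.377). COX6C, a small complex IV subunit, differed by -0.60 (adjusted p = 0.146), or by -0.35 (adjusted p = 0.499) without both piglets, and each of its 3 probes was saturated on some arrays.

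**Figure D3:**
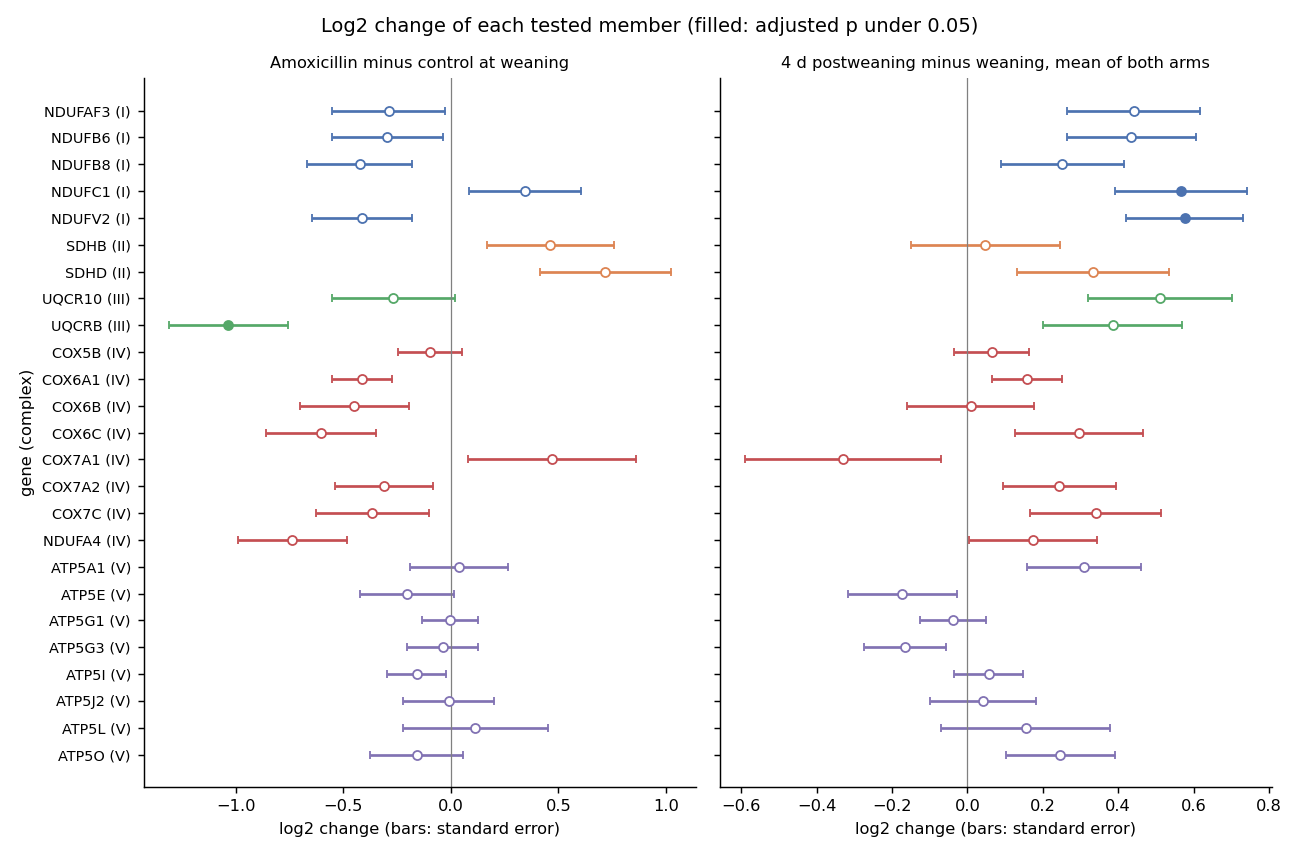
Log2 change with its standard error (horizontal axis) for each of the 25 tested subunits (rows, grouped by complex), for amoxicillin minus control at weaning and for 4 d postweaning minus weaning over both arms, with filled points for called changes. UQCRB is the filled point of the first comparison, and NDUFV2 and NDUFC1 those of the second.

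The probes of a subunit disagreed at weaning. Over the 13 members with at least 3 probes, the standard deviation of the treatment difference among the probes of a gene had a median of 0.81 at weaning and 0.15 to 0.29 in the other 8 comparisons of age or treatment. Over the 1022 genes of the array with as many probes it was 0.46 at weaning and 0.12 to 0.29 in the others. The 6 probes of NDUFA4 gave differences from -2.88 to 0.29, the 7 of UQCRB from -1.98 to -0.01, and the 10 of ATP5O from -2.37 to 0.78. The 14 probes of ATP5A1 spread from -1.89 to 0.91, the 7 of SDHB from -1.66 to 1.25 and the 5 of SDHD from -0.91 to 1.46. Thus all probes of UQCRB pointed down, and for 7 of the 13 members probes pointed both ways.

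With 1 value per probe, 16 of the 95 tested subunit probes were called at weaning, which is 16.8% of them against 8.07% of all probe names. Of these, 11 were lower and 5 higher in the amoxicillin arm, and they belonged to 9 members, namely NDUFB8, NDUFV2, SDHB, SDHD, UQCRB, COX6C, NDUFA4, ATP5A1 and ATP5O. SDHB had probes called in both directions. Without both piglets that stood apart 12 probes were called, 8 lower and 4 higher, in 7 members (7.06% of all probe names), and the median standard deviation among probes was 0.64. Of the 16, 11 had the same sign at day 1, 15 at day 7, 13 at 4 d and 4 at 4 wk postweaning, and 3 were also called at 4 d. A mean over the probes of a gene, which the levels above are, does not show this spread. Leaving out every probe saturated on any array kept 17 members, of which UQCRB (-1.03, SE 0.28, adjusted p = 0.0183) and NDUFA4 (-1.07, SE 0.30, adjusted p = 0.0234) were called, beside 7.99% of all genes. The NDUFA4 mean includes the probe that differed by -2.88. In amoxicillin weaning piglets that probe lay at 6.99 (6.73 to 7.15), near the highest dark spot (6.98) and below the filter (7.68). The other NDUFA4 probes lay at 11.71 or higher in these piglets.

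**Figure D4:**
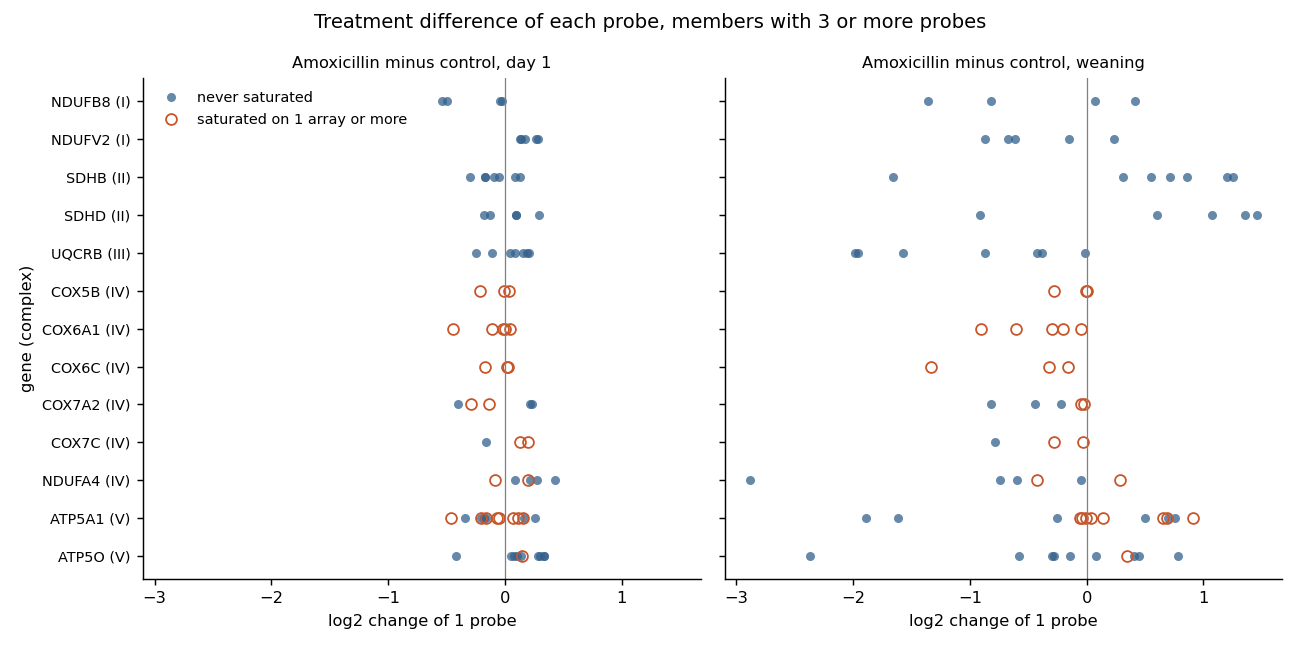
Treatment difference (amoxicillin minus control, log2, horizontal axis) of every probe of the 13 subunits with at least 3 probes (vertical axis), at day 1 and at weaning, with open symbols for probes saturated on at least 1 array. The spread among the probes of a gene is wider at weaning, where its median standard deviation is 0.81, than at day 1.

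Several of these probes had levels that went with the slide. The lowest-going probe of NDUFA4 lay at 9.20 in the amoxicillin day 7 piglets of slide 4 and at 6.99 in the single day 7 piglet on slide 5. It was 6.99 in the weaning piglets and 7.96 in the 4 d piglets of slide 5, 9.60 in the single 4 d piglet on slide 6 and 9.87 in the control weaning piglets of slide 2. The values of 6.99 lay near the highest dark spot (6.98) and below the filter (7.68). The lowest-going probe of UQCRB had a like course. It was 11.83 on slide 4 at day 7, 9.60, 10.28 and 10.71 on slide 5 at day 7, weaning and 4 d, and 12.26 on slide 2 at weaning. For ATP5O these values were 10.66, then 8.79, 8.71 and 9.49, and 11.08. The low values thus spanned 3 ages on slide 5, and the NDUFA4, UQCRB and ATP5O probes were higher in the day 7 piglets of slide 4. For all of these probes the day 7 value of slide 5 is that of amoxicillin piglet 24 alone. This piglet had the lowest median deviation over all members in its group, -0.32 against -0.22 to 0.05 in the others. The highest-going probe of SDHD was less bound to the slide, with 13.61 on slide 4 at day 7, 13.86, 14.25 and 14.12 on slide 5, and 12.79 on slide 2 at weaning. The part of the slide in the weaning differences of UQCRB and NDUFA4 cannot be told apart from treatment.

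**Figure D5:**
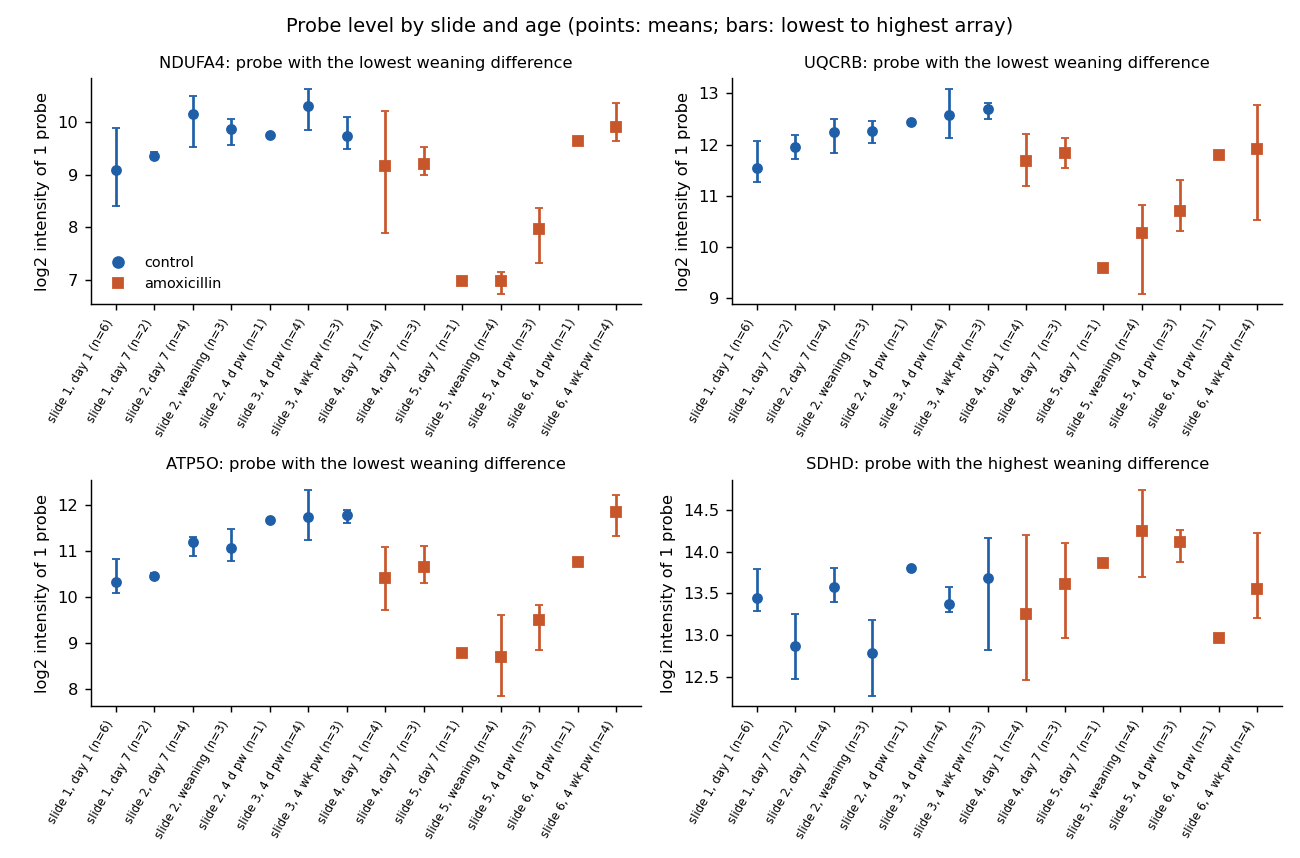
Log2 intensity (vertical axis; mean with lowest and highest array) by slide and age (horizontal axis) for 1 probe each of NDUFA4, UQCRB, ATP5O and SDHD. The NDUFA4, UQCRB and ATP5O probes are low at the 3 ages measured on slide 5 (a single array at day 7) and higher at day 7 on slide 4.

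In the step from weaning to 4 d postweaning, 76 of the 95 probes were higher at 4 d. All 7 probes of UQCRB, all 5 of NDUFV2, all 5 of SDHD, all 4 of NDUFB8 and both of NDUFC1 were among them. For 6 of the 13 members with at least 3 probes, probes pointed both ways here too. Those of NDUFA4 ran from -0.61 to 0.86, 4 of 7 of SDHB were lower and 3 of 10 of ATP5O were lower. Of these probes 8 were called, all higher at 4 d, which is 8.42% of the 95 against 12.7% of all probe names. They belonged to ATP5O, NDUFC1, NDUFV2, SDHD and UQCRB. Without both weaning piglets that stood apart 8 were called again, but in ATP5A1, NDUFAF3, NDUFC1, NDUFV2 and UQCR10, beside 18.9% of all probe names.

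Subunits varied together from piglet to piglet to a modest degree. Over the 43 arrays, after the group means were removed, the 300 pairs of the 25 members had correlations from -0.57 to 0.84 with a median of 0.25, and 246 lay above 0. The 10 pairs within complex I had a median of 0.48, the 28 within complex IV 0.29 and the 28 within complex V 0.19, while the 232 pairs between complexes had 0.25. UQCRB and ATP5J2 had the highest value, 0.84, and SDHB and SDHD, which sit in 1 enzyme, had 0.83. NDUFB6 and ATP5E had the lowest, -0.57. These are descriptions: all pairs share the arrays, their normalization and their slides.

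Other mitochondrial genes were taken from lists. The calls below stand beside 30.5% of all genes called over the ages in the control arm and 47% in the amoxicillin arm. For the steps the shares of all genes were 11.5% (day 7 to weaning), 13.7% (weaning to 4 d) and 5.43% (4 d to 4 wk). Of 12 tested genes of the tricarboxylic acid cycle and pyruvate entry, PDK4, a kinase that shuts pyruvate dehydrogenase, fell by 2.32 from weaning to 4 d (adjusted p = 0.0124). IDH2 (adjusted p = 0.0267) and MDH2 (0.0137), mitochondrial dehydrogenases of the cycle, were called over the ages in the control arm, and CS, the citrate synthase, in the amoxicillin arm (0.0253). Of 10 tested mitochondrial carriers, UCP2, an uncoupling protein family member, rose by 1.90 from day 7 to weaning (adjusted p = 0.00448) and fell by 1.67 from weaning to 4 d (adjusted p = 0.0107). UCP3, of the same family, fell by 1.85 from day 7 to weaning (adjusted p = 0.00959). The 2 markers of B cells tested, CD79A and MS4A1, rose over the step from day 7 to weaning by 3.41 and 3.55. These rises were 1.56 (adjusted p = 0.0864) and 2.01 (adjusted p = 0.0506) without both weaning piglets that stood apart, and neither was then called. The part of B cells in the UCP2 value was not tested. Without both weaning piglets that stood apart, UCP2 differed by 0.88 (adjusted p = 0.0760) and -0.65 (adjusted p = 0.142) in these steps and was not called, while UCP3 (-1.83, adjusted p = 0.0377) and PDK4 (-3.23, adjusted p = 0.000617) were.

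Among 5 tested regulators of mitochondrial content, TFAM, which packs and transcribes mitochondrial DNA, fell by 0.80 from 4 d to 4 wk postweaning (adjusted p = 0.0465). PPARGC1A, a coactivator of mitochondrial biogenesis, was called over the ages in the control (0.0116) and the amoxicillin arm (0.0136), and HIF1A, the oxygen-regulated factor, in the amoxicillin arm (0.00386). Over the ages 30.5% of all genes were called in the control and 47% in the amoxicillin arm. PET100, an assembly factor of complex IV, was called over the ages in both arms (0.00905 and 0.000182), as 1 of 2 tested assembly factors outside the symbols of the rule. Of 9 tested glycolytic genes, HK1, a hexokinase, rose by 0.69 from day 7 to weaning (adjusted p = 0.0239, and 0.47 with adjusted p = 0.175 without both piglets that stood apart), and PFKM and TPI1 were called over the ages in the amoxicillin arm (0.0234 and 0.00503). No gene of these 5 lists was called between amoxicillin and control at any age. None of the 13 protein genes of the mitochondrial genome was found among the named accessions.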

How the data were processed

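Jejunal RNA of 43 piglets was measured on one-color Agilent arrays. The authors deposited the linear intensity and background of 45122 spots per array (Feature Extraction 10.7.3.1), not scaled between arrays, and a log2 table made in R 3.0.2 with limma by normexp and quantile normalization. The same steps were computed here from the median intensity (limma 3.58.1, R 4.3.3, offset 1), within 5e-09 of the authors' log2 table. Outlier-flagged spots (45 to 375 per array) were left out and probes averaged by accession. Genes above 1.1 times the highest unflagged dark spot (6.98, giving 7.68) on every array of a group were tested. All arrays entered a fit of 10 groups (33 residual degrees of freedom) with Benjamini-Hochberg adjustment over 12771 genes. The number of arrays limits precision (median SE at day 1, 0.32). Steps between ages are means of both arms. Symbols came from RefSeq (2978 accessions, 1890 of the tested genes).

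The members, gene lists and tests were chosen with earlier results of these data known. Named were, per complex, the 3 members with the smallest p over the ages, members called for treatment (otherwise the 2 with the smallest p at that age) or for interaction, isoforms, members with opposed probes, untested members and called list genes. The fit was tested on simulated data. The alternatives were other offsets, scalings, filters and blocks, 1 value per probe, a fold threshold of 1.5 (log2), single ages and single arrays left out. Leaving out saturated probes or 2 weaning arrays was chosen after seeing the data.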

Additional observations from a re-analysis of the deposited data

Results flagged for a closer look

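In groups of 4 to 6 arrays, 50 combinations of a named subunit and a group were searched for a single array far from the rest, and 2 were found, where chance gives about 1 in 20. COX6B in amoxicillin piglet 21 at day 7 had a log2 level of 13.13, with the next array at 12.90 and the lowest at 12.87. ATP5O in amoxicillin piglet 7 at weaning had 14.33, with the next at 13.58 and the lowest at 13.50. Neither gene was called for treatment at these ages.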

How the results depend on the processing

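Beside single arrays, 39 of 167 counts of called subunits moved and 128 did not, and of 260 values of named subunits 233 kept sign and call, 15 lost the call, 7 gained it and 5 changed sign. Calls over the ages in the amoxicillin arm (4) became 0 with a log2 fold threshold of 1.5, with a random slide block and with the replicate block, 1 with a fixed slide block, 2 with a common 75th percentile or the processed signal, and 13 with 1 value per probe. In the control arm (0) they became 1 with the percentile, the processed signal or flagged spots kept, 2 without both weaning arrays that stood apart and 3 per probe. From day 7 to weaning (1) they became 0 with the fold threshold, the processed signal, no filter, the replicate block, the fixed block or without both arrays. From weaning to 4 d (2) they became 0 with the fold threshold, percentile, processed signal or replicate block, 1 with no filter or the fixed block, 4 without both arrays and 5 per probe. For amoxicillin at weaning (1) they became 0 with the fold threshold, processed signal, random block, that age alone or without both arrays, 2 with an offset of 50, flagged spots kept or saturated probes left out, and 9 per probe. Per probe, counts of 0 became 2 from 4 d to 4 wk, 4 for amoxicillin at 4 d, 1 at 4 wk and 3 for interaction.

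Leaving out single arrays gave 0 to 1 calls over the ages in the control arm, 2 to 7 in the amoxicillin arm, 0 to 1 from day 7 to weaning, 1 to 5 from weaning to 4 d, 0 to 1 from 4 d to 4 wk and 0 to 3 for amoxicillin at weaning, and 0 elsewhere. UQCRB at weaning was -0.87 (adjusted p = 0.0832) with the processed signal and -0.98 (0.117) with the random block. From weaning to 4 d, NDUFV2 was 0.48 (0.0991) and NDUFC1 0.46 (0.130) with the percentile, and 0.43 (0.128) and 0.52 (0.0971) with the processed signal. NDUFAF3 and UQCR10 were gained without control weaning piglet 7, amoxicillin weaning piglet 8 or amoxicillin 4 d piglet 34. SDHB from 4 d to 4 wk changed sign to -0.00438 with the percentile, -0.017 with the processed signal and -0.0722 with the replicate block, and NDUFAF3 (-0.14) and SDHD (-0.12) from weaning to 4 d with the replicate block. The causes were not tested.

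Piglet numbers did not pair the samples: over 18 same-numbered pairs the correlation of deviations ran from -0.27 to 0.44, and 6 exceeded 0.1. Control day 1 arrays 19 and 19B were not compared with each other there. With the replicate block the count at weaning stayed at 1 but UQCRB (-0.80, adjusted p = 0.175) was replaced by NDUFAF3. Since many numbers occur on a single array, that block leaves few residual degrees of freedom. Calls lost and signs changed with it decide nothing. Signal over background limits COX8H and NDUFA4L2, and saturation limits ATP5G1, ATP5G3 and ATP5I.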
